A study of Mus musculus with 6 samples.

Results

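The genes examined here are p53 itself (Trp53), its inhibitor Mdm2, the p53-responsive genes Cdkn1a, Ccng1, Btg2, Trp53inp1 and Bbc3, and the Gadd45 stress genes Gadd45a, Gadd45b and Gadd45g. They were found by gene name on the array, which gave 17 probes for 10 genes out of 41174 probes and 19335 tested genes. Of the 10 genes, 4 have 1 probe, 5 have 2 and Btg2 has 3. All 17 probes passed the filter on dim probes. Each was well above background on 6 of 6 arrays for either genotype, and none was saturated.

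RNA came from the anterior presomitic mesoderm and somites I to IV of mouse embryos at embryonic day 9.5, on a C57BL/6J background, either lacking Paraxis (Paraxis-/-) or wild type (WT). Paraxis, the product of Tcf15, is a transcription factor of the basic helix-loop-helix class that mouse somites need to become epithelial. Each genotype had 3 pools of 5 embryos, so that differences between single embryos cannot be seen. A Paraxis-/- pool and a WT pool shared 2 two-colour Agilent arrays with the dyes exchanged, which made 3 pairs of pools on 6 arrays, named by the letter of their WT pool. Pair A was on slide 1, and pairs B and C were on slide 2. A ratio is Paraxis-/- over WT on the log2 scale, averaged over the dye swap of a pair. A level is the log2 intensity of a pool after normalization, comparable between pools for the same probe only. Between pair A and the other pairs, a difference in level cannot be told apart from a difference between slides. This also holds where pools of different pairs are said to overlap or not. Values of pools and pairs are given in the order of pairs A, B and C. A gene is represented by its brightest probe, its SE is that of the limma fit, and adjusted p is limma's p after Benjamini-Hochberg adjustment over all genes or all probes, with a threshold of 0.05.

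The targeted gene was checked first. Tcf15 fell by 5.41 on the log2 scale (SE 0.087, limma adjusted p = 0.000533), with pair ratios of -5.23, -5.48 and -5.52. Its level was 9.76 ± 0.05 in Paraxis-/- pools and 15.17 ± 0.11 in WT pools (SD, n = 3 pools each). The markers of paraxial mesoderm were detected for 7 of 8 genes, and the eighth, Ripply1, has no probe here. Between 28683 and 31795 of 43379 gene spots were well above background in the Paraxis-/- channel, and between 27080 and 30982 in the WT channel. Precision is limited by having 3 pairs.

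The p53 protein is a transcription factor that DNA damage and other stresses stabilise, and Mdm2 is the ubiquitin ligase that marks it for destruction and is itself a p53 target. Among the other targets, Cdkn1a encodes the cyclin-dependent kinase inhibitor p21, Btg2 an antiproliferative protein of the BTG/TOB family, Ccng1 cyclin G1, Trp53inp1 a nuclear protein of the stress response, and Bbc3 the death-promoting protein Puma. The 3 Gadd45 proteins are small acidic proteins that bind PCNA, p21, Cdk1 and the kinase Map3k4 and are induced by stress. In mouse embryos p53 activity has to be held down, since embryos without Mdm2 die unless p53 is removed too.

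The probe sites that the comparisons turn on are printed from the array files in lower case, 5′ to 3′, with mm9 positions. Whether a site is exonic coding sequence or untranslated is not annotated in the files. Positions in a transcript are in bases, as the array files give them. Gadd45b had the highest ratio and Trp53 the lowest, and both Gadd45b probes are shown because they differed in size.
Trp53, position 989, chr11:69403134-69403193, plus strand: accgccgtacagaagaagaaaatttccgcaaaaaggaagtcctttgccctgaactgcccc
Gadd45b, position 683, first 30 bases, chr10:80394367-80394396, plus strand: ctatatctctctagaggaacgctgagaccc
Gadd45b, position 1206, last 30 bases, chr10:80394920-80394949, plus strand: agagacattccAATAAActcgttaagcctt
The capitals mark AATAAA, the letters of the common polyadenylation signal, in the Gadd45b probe at position 1206.

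Probes of Btg2 and Trp53inp1 are shown because they gave unlike ratios for the same gene.
Btg2, position 284, chr1:135974181-135974240, minus strand: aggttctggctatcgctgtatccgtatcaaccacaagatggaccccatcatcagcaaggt
Btg2, position 2371, last 30 bases, chr1:135972094-135972123, minus strand: cactttagaaatgacaaaccctagagctgg
Trp53inp1, position 2047, first 30 bases, chr4:11098180-11098209, plus strand: AGTACTAATACTTACCACAGCAGGCGagta
Trp53inp1, position 5041, last 30 bases, chr4:11101204-11101233, plus strand: tcaacttgaaacttaaaagggacattttgg
The capitals in the Trp53inp1 probe at position 2047 mark a unit of 26 bases that is repeated in it. Of the 34 bases that could be compared with those 26 bases earlier, 33 matched (97.1%). In the other 16 probes, the best match at any spacing examined was at most 57.1%, in the Mdm2 probe at position 921.

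Across the whole group most ratios lay above 0, and no gene passed the adjusted threshold. None of the 10 genes had an adjusted p under 0.05 with limma, where 0.0207% of all genes did, and their adjusted p lay between 0.319 and 0.978. At an unadjusted p under 0.05 there were 6 of the 10 genes, 5 of them higher in Paraxis-/- pools and 1 lower, against 5.07% of all genes. The ratio was above 0 in all 3 pairs for 5 genes (Gadd45b, Trp53inp1, Gadd45g, Btg2 and Cdkn1a), where 13.5% of all genes had this. It was below 0 in all 3 pairs for 1 gene, Trp53, where 12.2% of all genes had this. The other 4 genes, Mdm2, Ccng1, Gadd45a and Bbc3, had pairs on both sides of 0. The median ratio of the group was 0.22, and that of all tested genes was 0.00390. The median absolute ratio was 0.29 in the group and 0.066 over all genes. Members were chosen with earlier results of these data known, so comparisons of their genes or probes with all others do not test the group.

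Probe by probe the picture was similar. None of the 17 probes passed, where 0.0141% of all probes did, and their adjusted p lay between 0.315 and 0.988. At an unadjusted p under 0.05 there were 7 of the 17 probes, against 5.67% of all probes. Levels of all 3 Paraxis-/- pools lay above those of all 3 WT pools for 4 probes, those of Trp53inp1 at position 5041, Gadd45b at position 683, Gadd45g and Btg2 at position 2371, where 2.86% of all kept probes had this. No member probe had all 3 Paraxis-/- pools below the WT pools, where 3.33% of all kept probes had this. With 3 pairs, the smallest p that an exact sign-flip test (two-sided) can give is 0.25.

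**Figure D1:**
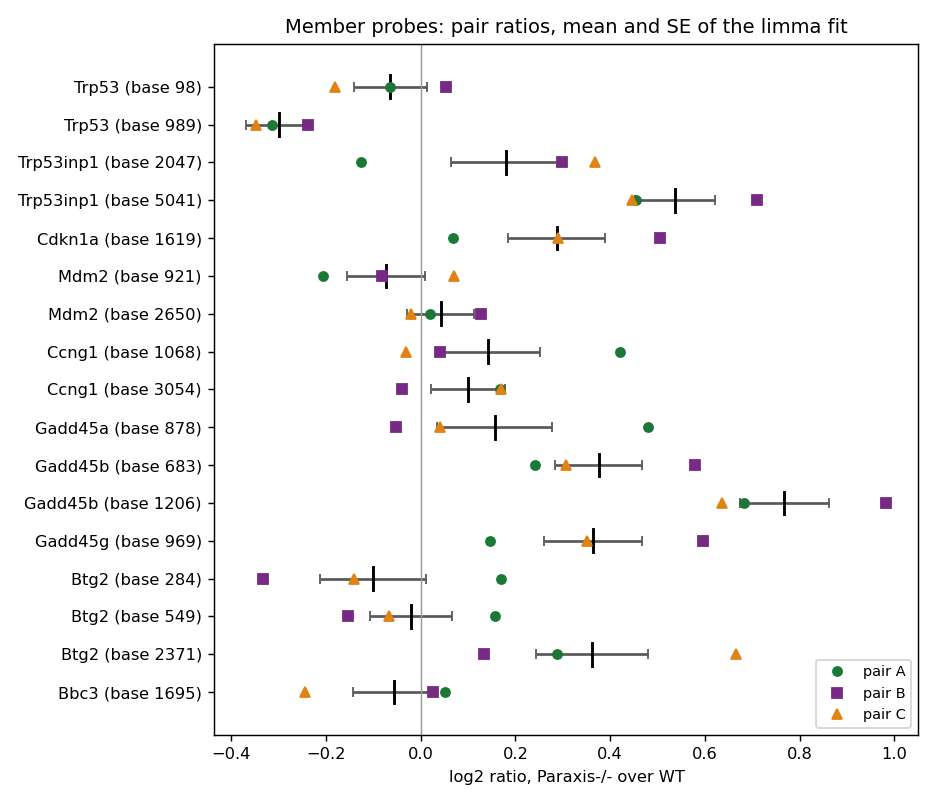
Log2 ratio of Paraxis-/- over WT for each of the 17 probes, named by gene and start in the transcript. Symbols are the 3 pairs, the black tick is their mean and the bar is the SE of the limma fit. Both Gadd45b probes lie above 0 in every pair, the Trp53 probe at base 989 lies below 0 in every pair, and the probes of Btg2 fall on both sides.

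Trp53 had the only ratio of the group that was below 0 in every pair. Its brightest probe, at position 989, had levels of 10.89, 10.54 and 10.43 in Paraxis-/- pools, against 11.21, 10.78 and 10.78 in WT pools (pairs A, B and C). Each Paraxis-/- pool lay below the WT pool of its own pair, while pool A of Paraxis-/- lay above WT pools B and C, so the groups overlapped. The ratio averaged -0.30 (SE 0.067, limma adjusted p = 0.736), with -0.31, -0.24 and -0.35 in the pairs. The upstream Trp53 probe, at position 98, gave -0.06, 0.05 and -0.18, with a mean of -0.06. As the mean over both probes the Trp53 ratio was -0.18 (limma adjusted p = 0.907). Over the 14 alternatives for the gene, this mean among them, the adjusted p lay between 0.275 and 0.992.

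Mdm2, a target of p53 as well as its inhibitor, had mean ratios near 0 at both probes. At position 2650 its levels were 11.22, 10.82 and 10.76 in Paraxis-/- pools, against 11.20, 10.69 and 10.78 in WT pools. The groups overlapped, and the ratio averaged 0.043 (SE 0.070, limma adjusted p = 0.978), with 0.02, 0.13 and -0.02 in the pairs. It was 0.00022 without pair B and 0.074 without pair C. The probe at position 921 gave -0.21, -0.08 and 0.07, a mean of -0.073, so that the mean of the 2 probes had the other sign.

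Among the p53-responsive genes, Trp53inp1 stood farthest from 0. At position 5041 its levels were 10.53, 10.65 and 10.48 in Paraxis-/- pools, against 10.07, 9.94 and 10.03 in WT pools. All 3 Paraxis-/- pools lay above all 3 WT pools, and the spread was 0.090 among Paraxis-/- pools and 0.066 among WT pools (SD, n = 3 each). The ratio was 0.45, 0.71 and 0.45 in the pairs and averaged 0.54 (SE 0.085, limma adjusted p = 0.478), a 1.45-fold higher mean level. With the pair as a random block over 6 arrays the adjusted p was 0.273, and over the 14 alternatives it lay between 0.0655 and 0.992. At the repeat-bearing site at position 2047 the ratios were -0.12, 0.30 and 0.37, and levels of 9.34, 8.91 and 8.77 in Paraxis-/- pools overlapped those of 9.46, 8.61 and 8.41 in WT pools. As the mean over both probes the Trp53inp1 ratio was 0.36 (limma adjusted p = 0.74).

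Cdkn1a, the gene of p21, had levels of 8.17, 7.93 and 7.69 in Paraxis-/- pools, against 8.10, 7.42 and 7.40 in WT pools. The groups overlapped, since the WT pool of pair A lay above the Paraxis-/- pools of pairs B and C. Its ratio averaged 0.29 (SE 0.10, limma adjusted p = 0.947), with 0.07, 0.51 and 0.29 in the pairs. Without pair B the ratio was 0.18.

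The 3 probes of Btg2 did not give the same ratio. At position 2371, its levels were 9.47, 9.47 and 10.10 in Paraxis-/- pools, against 9.18, 9.34 and 9.43 in WT pools, and the groups did not overlap. That ratio averaged 0.36 (SE 0.12, limma adjusted p = 0.933), with 0.29, 0.13 and 0.66 in the pairs, and was 0.21 without pair C. The probe at position 284 averaged -0.10, with 0.17, -0.33 and -0.14, and the probe at position 549 averaged -0.020, with 0.16, -0.15 and -0.07. Averaged over its probes, Btg2 had a ratio of 0.080 (limma adjusted p = 0.958). Over the 14 alternatives for the gene, this average among them, the adjusted p lay between 0.198 and 0.992.

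Ccng1 and Bbc3 showed no common direction. For Ccng1, the cyclin G1 gene, the probe at position 3054 gave 0.17, -0.04 and 0.17 (limma adjusted p = 0.953), and the probe at position 1068 gave 0.42, 0.04 and -0.03. For Bbc3, the Puma gene, levels were 12.21, 11.83 and 11.52 in Paraxis-/- pools, against 12.16, 11.80 and 11.76 in WT pools. Its ratio averaged -0.055 (SE 0.088, limma adjusted p = 0.978), and the pairs had 0.05, 0.03 and -0.24.

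In the Gadd45 family, Gadd45b had the largest ratio of all 10 genes. At position 1206 its levels were 8.50, 9.54 and 9.33 in Paraxis-/- pools, against 7.82, 8.56 and 8.69 in WT pools. Each Paraxis-/- pool was higher than its WT partner, but pool A of Paraxis-/- lay below WT pools B and C, so the groups overlapped. The ratio was 0.68, 0.98 and 0.64 in the pairs and above 0 on 6 of 6 arrays, and it averaged 0.77 (SE 0.095, limma adjusted p = 0.319), a 1.70-fold higher mean level.

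The call for Gadd45b depended on how the dye swaps entered the fit. With 6 arrays and the pair as a random block, the ratio of 0.77 had a limma adjusted p of 0.0374. With the slide as a random block the ratio was 0.76, with a limma adjusted p of 0.0448. On slide 2 that block treats the dye swaps of a pair as no more alike than arrays of different pairs. The fit on the 3 pair ratios, with dye swaps averaged, gave 0.319. In the 14 alternatives the adjusted p ranged between 0.0152 and 0.992, and it was under 0.05 in 3. Within slide 2, which holds pairs B and C, the ratio was 0.81 (limma adjusted p = 0.345).

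The second Gadd45b probe, at position 683, pointed the same way with a smaller ratio. Its levels were 8.43, 8.64 and 8.37 in Paraxis-/- pools, against 8.19, 8.06 and 8.06 in WT pools, with no overlap. The ratio averaged 0.38 (SE 0.092, limma adjusted p = 0.72 over all probes), with 0.24, 0.58 and 0.31 in the pairs. As the mean over both probes the Gadd45b ratio was 0.57 (limma adjusted p = 0.433).

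Gadd45g had levels of 14.13, 14.30 and 14.16 in Paraxis-/- pools, against 13.99, 13.70 and 13.81 in WT pools. The groups did not overlap, although in pair A the pools differed by only 0.15. Its ratio averaged 0.36 (SE 0.10, limma adjusted p = 0.933), with 0.60 in pair B and 0.35 in pair C. Gadd45a differed from both relatives in its pattern over pairs. Its levels were 11.45, 11.54 and 11.56 in Paraxis-/- pools, against 10.97, 11.59 and 11.52 in WT pools, so that WT pool A was low and the other pools were alike. Pair A had a ratio of 0.48, pair B -0.05 and pair C 0.04, with a mean of 0.16 (SE 0.12, limma adjusted p = 0.953). The difference between Gadd45 genes was not tested.

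**Figure D2:**
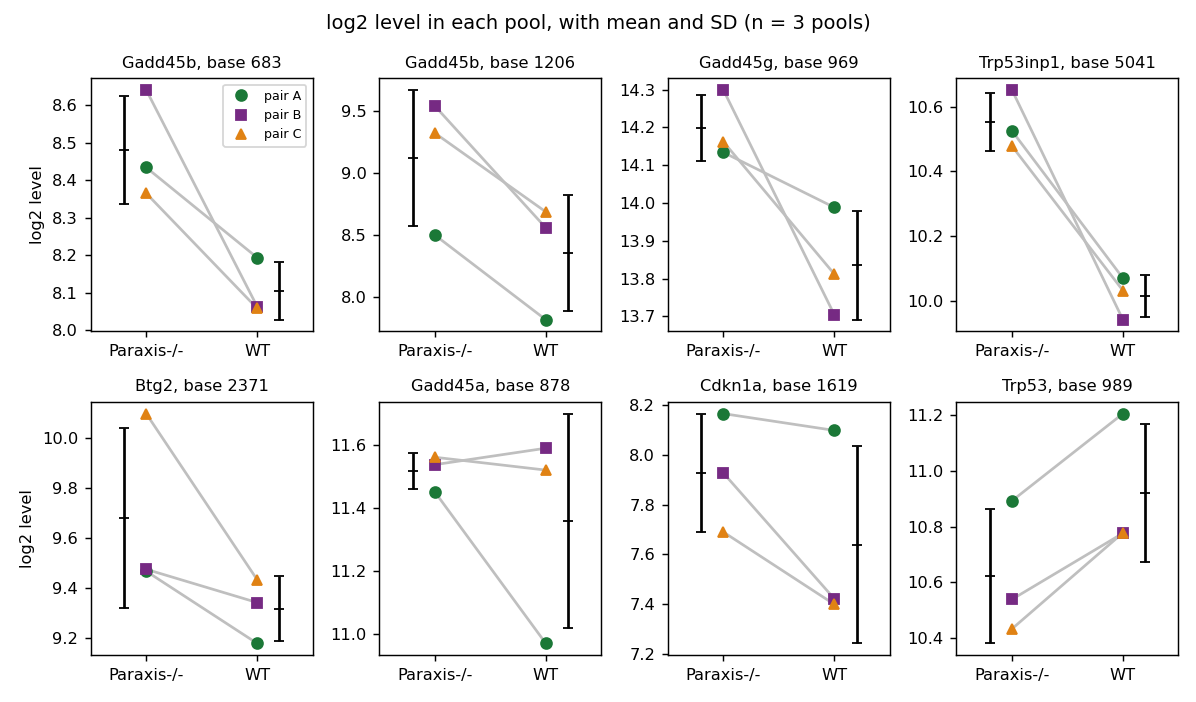
Log2 level of 8 probes in each pool, Paraxis-/- on the left and WT on the right of each panel. Symbols are pools, grey lines join the 2 pools of a pair, and the bars beside them give mean and SD of 3 pools. Axes differ between panels. Gadd45b at base 683, Gadd45g, Trp53inp1 and Btg2 have no overlap between genotypes, while Gadd45b at base 1206, Gadd45a, Cdkn1a and Trp53 overlap.

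Trp53 at position 989, Cdkn1a and Mdm2 at position 921 were printed 10 times on each array, so that the error between spots can be set beside the difference between arrays. For Trp53 the SD between the spots of an array lay between 0.026 and 0.070. Its array means were -0.67 with Paraxis-/- in Cy3 and 0.04 with Paraxis-/- in Cy5 for pair A, -0.34 and -0.14 for pair B, and -0.20 and -0.49 for pair C. The arrays of a pair therefore differed by more than the spots of an array, and the ratio was below 0 on 5 of 6 arrays.

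For Cdkn1a the SD between spots lay between 0.059 and 0.109. Its array means, in the same order of dyes, were 0.35 and -0.22 for pair A, 0.60 and 0.41 for pair B, and 0.33 and 0.25 for pair C. The small ratio of pair A is thus the mean of 2 arrays with opposite signs. For Mdm2 the SD between spots lay between 0.051 and 0.124, with 1 outlier spot left out. Its array means were -0.26 and -0.15 for pair A, -0.19 and 0.03 for pair B, and 0.02 and 0.12 for pair C.

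**Figure D3:**
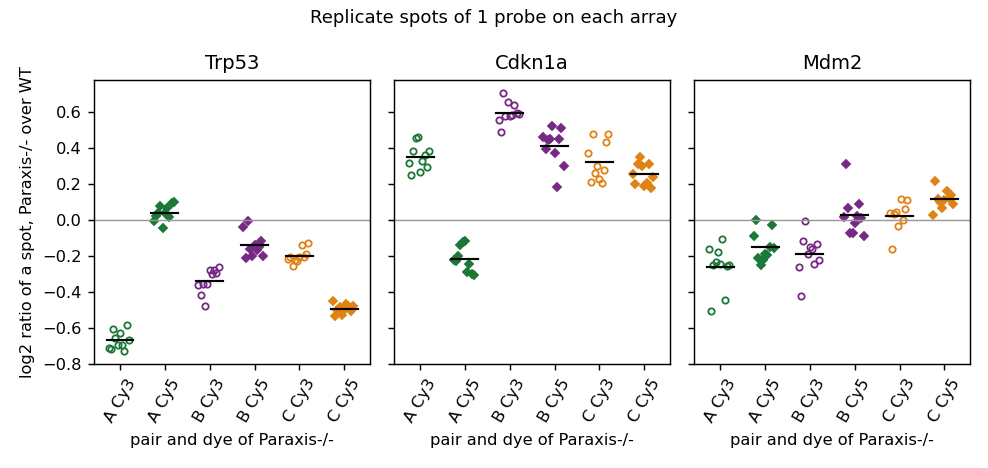
Log2 ratio of Paraxis-/- over WT of each of up to 10 spots of the same probe, by array, for Trp53 (position 989), Cdkn1a and Mdm2 (position 921). Arrays are named by pair and by the dye of the Paraxis-/- pool, open circles for Cy3 and filled diamonds for Cy5, and black lines are array means. Spots of an array lie close together, while the arrays of pair A differ in sign for Trp53 and Cdkn1a.

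Probes of the same gene were compared by taking the ratio at the most 3′ probe minus that at the most 5′ probe, which was possible for 6 of the 10 genes and 4699 genes in all. The difference averaged 0.39 for Gadd45b (0.44, 0.40 and 0.33 in the pairs, SD 0.058), 0.36 for Trp53inp1 (0.58, 0.41 and 0.08, SD 0.26) and 0.46 for Btg2 (0.12, 0.46 and 0.80, SD 0.34). These 3 of 6 genes were above 0 in all 3 pairs, where 22.5% of all genes compared had this. For Trp53 the 3′ probe was lower than the 5′ probe in all 3 pairs, by a difference of -0.24 on average (-0.25, -0.29 and -0.17, SD 0.063), where 7.34% of genes had a difference below 0 in all pairs. Mdm2 averaged 0.12 and Ccng1 averaged -0.044, each with pairs on both sides of 0.

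None of the 6 differences passed an adjusted p of 0.05 in a limma fit over all genes compared, where 0.0638% did, and their adjusted p lay between 0.545 for Gadd45b and 0.953 for Ccng1. At an unadjusted p under 0.05 there were 4 of 6, Gadd45b, Btg2, Trp53inp1 and Trp53, against 7.55% of genes. Over all genes compared the median difference was 0.045, and it was above 0 in each pair. This fit was added after the data had been seen.

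**Figure D4:**
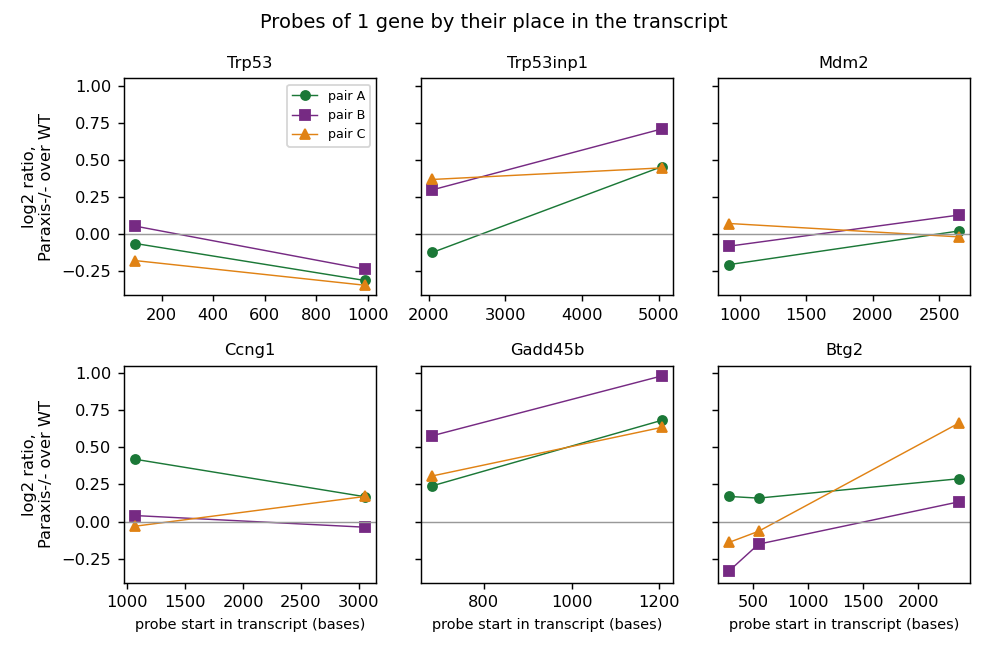
Log2 ratio of Paraxis-/- over WT against the start of the probe in the transcript, for the 6 genes with more than 1 probe. Lines join the probes of a gene within a pair. The lines climb toward the 3′ end in all pairs for Gadd45b and Trp53inp1, end higher than they start for Btg2, and descend in all pairs for Trp53.

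Promoters are shown for Gadd45b and Gadd45g, the Gadd45 genes whose ratios were above 0 in all pairs, and were chosen with their motif matches known. The windows come from RefSeq on GRCm38.p6, a build other than that of the probes, and run over the 200 bases before the transcription start. Capitals mark E-boxes, CANNTG, the letters bound by basic helix-loop-helix factors as a class.
Gadd45b, chr10:80929891-80930090, plus strand: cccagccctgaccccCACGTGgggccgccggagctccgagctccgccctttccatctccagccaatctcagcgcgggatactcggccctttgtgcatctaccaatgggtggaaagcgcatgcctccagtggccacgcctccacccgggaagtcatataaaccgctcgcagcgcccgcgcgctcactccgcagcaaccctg
Gadd45g, chr13:51846475-51846674, plus strand: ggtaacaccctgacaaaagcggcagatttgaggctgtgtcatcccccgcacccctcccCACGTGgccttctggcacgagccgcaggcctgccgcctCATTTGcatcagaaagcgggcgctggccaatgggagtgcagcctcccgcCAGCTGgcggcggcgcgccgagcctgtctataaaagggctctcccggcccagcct
The E-box CACGTG starts at position -185 in Gadd45b and at -142 in Gadd45g, counted from the start, and TATAAA starts at -46 and at -27.

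Motifs were searched on both strands in the 250 bases before the start, where CACGTG also counts as a CANNTG match. Windows were found for 9 of the 10 genes, 12 windows in all, and Trp53inp1 was not matched. CANNTG was in 7 of the 12 windows, from 6 genes, and in 66.2% of 32851 windows genome-wide. CACGTG was in 3 of 12 windows, those of Gadd45b, Gadd45g and 1 of Bbc3, against 6.02% of all windows. TATAAA was in 3 of 12, those of Gadd45b, Gadd45g and Trp53, against 12.4%. The p53 half-site was in 5 of 12, for Cdkn1a, Mdm2, Ccng1, Gadd45a and Trp53, against 7.13%. Of the other genes with ratios above 0 in all pairs, Btg2 had no match to any of these motifs in its window, and Cdkn1a had none to CACGTG or TATAAA in either of its windows. These are matches of letters, and binding was not measured.

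Other genes of the pathway were read in lists chosen from their known roles, with earlier results of these data already seen. Of 120 further genes with p53, growth arrest, death, cell cycle or stress roles, 115 were tested, none passed the adjusted threshold with limma, and 12.2% had an unadjusted p under 0.05, against 5.07% of all genes, with 8 higher and 6 lower in Paraxis-/- pools. Their median ratio was 0.012. Among 22 further p53 targets in arrest and repair, 4 were higher at an unadjusted p under 0.05 and none lower, against 5.07% of all genes in either direction, and the median was 0.015. Among those 4 were Plk2, a polo-like kinase (0.32), and Ddit4, an mTOR inhibitor induced by stress (0.57, with 0.77, 0.77 and 0.16 in the pairs). The limma adjusted p was 0.636 for Plk2 and 0.837 for Ddit4.

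Of 14 p53 targets in cell death, 0 reached an unadjusted p under 0.05 in limma, against 5.07% of all genes, none passed the adjusted threshold, and the median was -0.0064. Bax, the pore-forming death effector, averaged -0.77, but the value rested on pair C, with 0.35, -0.11 and -2.55 in the pairs (limma adjusted p = 0.953). In the Bcl2 family outside that list, 2 of 11 genes were higher at an unadjusted p under 0.05, the BH3-only genes Bmf (0.34) and Bik (0.27), against 5.07% of all genes in either direction, and the median was 0.0099. Among 19 regulators and relatives of p53, 1 was higher and 1 lower at an unadjusted p under 0.05 (5.07% of all genes). Trp53inp2 had 0.28 and Trp53bp2, which encodes a p53-binding protein, had -0.17, with a median of -0.031. Cdkn2a was below the filter.

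Growth-arrest relatives were mixed in direction. Of 11 genes listed as Gadd45 partners, 1 had an unadjusted p under 0.05 (5.07% of all genes did), the bZIP gene Crebzf (-0.37), and the median was 0.026. The 6 other cyclin-dependent kinase inhibitors had a median of 0.0998, and the 6 relatives of Btg2, Tob and cyclin G had a median of 0.0083, in both cases with none at an unadjusted p under 0.05. Of 14 cell cycle genes that p53 lowers through p21, 1 had an unadjusted p under 0.05, the mitotic phosphatase gene Cdc25c (-0.31), and the median was 0.0070. Of 12 stress and growth-arrest genes, 1 was higher and 3 were lower at an unadjusted p under 0.05 (5.07% of all genes). The transcription factor gene Atf3 had 0.27, Ppp1r15a, also called Gadd34, had -0.21 and Atf4 had -0.20, with a median of -0.040. Among 17 immediate early genes, 1 was higher and 1 lower at that p (5.07% of all genes). Egr1 had 0.40 and Myc -0.28, and the median was 0.036, while Fos and Fosl1 were below the filter.

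Markers of other cell types were read beside these ratios, since in a tissue sample fewer cells of a type and less RNA per cell cannot be told apart. The 8 blood genes had a median ratio of 0.52, with 0.31, 1.01 and -0.09 in the pairs. Their summed linear level lay between 159236 and 241555 in Paraxis-/- pools and between 94069 and 161032 in WT pools, and 3 of 8 had an unadjusted p under 0.05, against 5.07% of all genes. In pair B, where the blood median was highest at 1.01, Gadd45b (0.98), Trp53inp1 (0.71), Gadd45g (0.60) and Cdkn1a (0.51) also had their highest ratios. In pair A, with a blood median of 0.31, these genes had 0.68, 0.45, 0.15 and 0.07. In pair C, with -0.09, they had 0.64, 0.45, 0.35 and 0.29. Mdm2 (0.13) and Trp53 (-0.24) were also highest in pair B, and Bbc3 (0.03) lay between its other pairs there. Btg2 (0.13), Gadd45a (-0.05) and Ccng1 (-0.04) had their lowest ratios in pair B. The 5 surface ectoderm genes had a median of 0.32, with 0.92 in pair A, the pair in which Gadd45a was highest, and 0.08 and 0.15 in the others. Their summed level lay between 28995 and 36225 in Paraxis-/- pools and between 18414 and 29747 in WT pools. Bbc3 (0.05) was also highest in pair A, while Gadd45g (0.15) and Cdkn1a (0.07) were lowest there. The remaining members lay between their other pairs in pair A. The part of surface ectoderm in the ratios of Gadd45a and the other members was not tested.

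Medians were 0.19 for 3 endoderm genes, 0.095 for 5 neural tube genes, 0.011 for 3 neural crest genes and -0.093 for 5 endothelial genes. The 7 paraxial mesoderm genes had a median of -0.24, with 0.02, -0.46 and -0.37 in the pairs. Their summed level lay between 40223 and 60518 in Paraxis-/- pools and between 49664 and 56663 in WT pools. Pair B thus had the lowest paraxial mesoderm median as well as the highest blood median. Gadd45g and Cdkn1a rose over pairs A, C and B, the order in which the paraxial mesoderm median fell. The other members did not follow that order. The retinoic acid enzyme gene Aldh1a2 (-0.82) and the somite genes Uncx (-0.78) and Pax3 (-0.49) had the smallest p, and all 3 were under 0.05 before adjustment. In the endothelial, surface ectoderm and endoderm lists 1 gene each was under 0.05 before adjustment, as were 5.07% of all genes. None of these marker genes passed the adjusted threshold in limma, and the part of cell type shares in the ratios of Gadd45b, Gadd45g, Trp53inp1, Btg2, Cdkn1a and Trp53 was not tested.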

How the data were processed

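Spot intensity was deposited by the authors as Agilent scanner output. Per the file headers it was read with Feature Extraction 10.7.3.1 on slide 1 and 10.5.1.1 on slide 2, while the submitters' processing notes name 8.5.1.1. Probe coordinates are in mm9 per the file headers. The deposited series matrix holds log10 ratios of Cy5 over Cy3, within 5e-11 of the scanner files and with a median of 0 on every array. Its direction and scale are therefore known.

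Median intensities were background-corrected with normexp (offset 50) and normalized by loess in limma 3.58.1 (R 4.3.3, data.table, version 1.17.8), without 1639 control spots and 438 to 620 outlier spots per array. Levels are loess and Aquantile values. Probes well above background in at least 4 of 6 measurements of either genotype were kept (28639), and 73 of 19335 genes had fewer than 3 pairs. The 3 pair ratios of a gene were compared with 0 by lmFit and eBayes (two-sided). Gene names were updated through RefSeq: accessions matched 26690 probes, symbols 5189 and synonyms 952, while 8343 probes have the file's name.

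For 2 arrays the title and the description name different pools, and titles were used. The mean of the arrays with the same dye for Paraxis-/- was taken off each array. Arrays paired by title then had r 0.38 to 0.62 across genes. Arrays of different pairs with different dyes for Paraxis-/- had -0.42 to -0.06, values that this centring itself pushes below 0. Without it, arrays paired by title had r 0.27 to 0.57. The pairing comes from the titles. Members, gene lists and tests were chosen with earlier results of these data known. Named are Tcf15, every member with all its probes, and up to 3 genes per list with the smallest unadjusted p. Some list genes were left unnamed, a choice made after seeing their values. 1 list gene is not reported here.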

Additional observations from a re-analysis of the deposited data

How the results depend on the processing

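Of 140 values of the 10 genes under 14 alternatives, 133 kept direction and side of the threshold, as did 210 of 221 values of the 17 probes under 13 alternatives each. Gadd45b at position 1206 passed only with 6 arrays as replicates (limma adjusted p = 0.0152 with no replicate block and 0.0374 with the replicate block) and with the slide block, added after seeing the data (0.0448). The blocks changed no other member's call. The ratio took the other sign for Mdm2 as the mean over its probes (-0.015), for Bbc3 (0.041) and the probes of Trp53 at position 98 (0.0030) and Btg2 at position 549 (0.030) under median centring. Leaving out a pair gave -0.0057 to 0.26 for Gadd45a (lowest without pair A), -0.11 to 0.039 for Bbc3 (highest without pair C), -0.11 to 0.046 for Btg2 at position 549 (above 0 without B, and 0.0027 without C) and -0.24 to 0.015 for Btg2 at position 284 (highest without B). The cause was not tested. Over all genes 4 passed, 2 higher and 2 lower. There were 18 (4 higher, 14 lower) with ratios scaled between arrays, 68 with no replicate block, 40 with the replicate block and 42 with the slide block. Over all probes 4 passed, against 9 with Agilent processed signals, 9 with the deposited ratios, 20 scaled, 89 with no replicate block, 47 with the replicate block and 52 with the slide block. Leaving out a pair gave 0 to 2 genes and 0 to 2 probes, with 0 without pair B, where 729 genes had an unadjusted limma p under 0.05. Tcf15 ranged between -5.50 and -5.35 then, and without pair B it was -5.37 (limma adjusted p = 0.0868, the highest of its alternatives, whose lowest was 3.4e-07). The planned slide block over 3 pairs could not be estimated. Fits on 6 arrays with no block count technical dye swaps as replicates, and the slide block does not separate the dye swaps of pairs B and C.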
